A study of Solanum tuberosum with 10 samples.

Results

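Heat stress transcription factor (TF) C-1 of potato (Solanum tuberosum L.), gene PGSC0003DMG400000380, was followed over 5 times in ultrasonicated (US) and control in vitro material. The gene was taken by its identifier, and it was 1 of 40430 features in the table of expression values. Its name is the one given by the study, which listed it among the genes that differed between US and control at 0 h. The gene was thus chosen by its difference in level between the US and control libraries of 0 h, and its values at that time are a description with no test.

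The US explants were exposed to ultrasound at 35 kHz and 70 W for 20 min, and the control explants were left without ultrasound. All groups were wild type plants of the cultivar Desirée, cut as single-node explants with a leaf from in vitro plantlets that were 4 w old, and all were cultured on a medium without growth regulators. Cutting was thus shared by US and control material. Sampling took place at 0 h, when the exposure ended, then on the next days at 24 h and 48 h, and in the subculture at 1 w and at 4 w, with 1 library for each treatment at each time, or 10 libraries in all. Per the methods of the study, the samples up to 48 h were explants, whereas those of 1 w and 4 w were leaves, stems and roots of plantlets that had grown out of them, although the labels name leaf for all. The methods describe pooled replicates and the labels a single one, and in either case the values at a given time carry no measure of the variation between plants.

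Heat stress transcription factors (HSFs) are proteins of plants and other eukaryotes that bind heat shock elements in the promoters of genes for heat shock proteins and other stress genes. In plants, class A members activate transcription, and class B and class C members lack the activation motifs typical of class A. Far less is known of class C than of class A, and much of it comes from rice and wheat, in which class C genes respond to heat, drought or abscisic acid (ABA).

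The gene lies on the minus strand of chromosome 12 in the SolTub 3.0 build, at position 4529741 to 4531488, a span of 1748 bp. No other annotated feature overlapped that span. The nearest features lay 18449 bp away on the side of lower coordinates and 12205 bp away on the other side.

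Levels are given in RPM, reads per 1000000 reads of the library total on the authors' scale, with the reads recovered from it. Library totals ranged between 33850938 and 45899162 reads. A low limit of 3 reads, set here, thus stood for 0.0654 to 0.0886 RPM, far below the gene's level in any library. In 8 of the 10 libraries the most similar other library was the one of the same time. The exceptions were control at 24 h and US at 48 h, which were nearest to each other (r = 0.97 across genes), and the tests of the US effect and of the change over time are given below also without the 24 h and 48 h pairs. In bulk tissue, fewer cells of a type and less RNA per cell cannot be told apart. Of the genes named by the study, 4 with products of the chloroplast or induced by light were taken as markers of green tissue. All 4 had reads in all 10 libraries. They are a pick from such names, which also include a chlorophyll a/b binding protein gene (PGSC0003DMG400008301). The 4 markers do not tell leaf from green stem.

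The level of heat stress TF C-1 in US material was lowest directly after the exposure and higher at each later time. It was 11.1 RPM at 0 h (95% Poisson interval 10.1 to 12.2, 405 reads). At 24 h it was 17.5 RPM (16.2 to 18.8, 687 reads) and at 48 h 20.2 RPM (18.9 to 21.6, 835 reads). In plantlets it was 35.6 RPM at 1 w (33.8 to 37.5, 1444 reads) and 62.2 RPM at 4 w (59.7 to 64.7, 2453 reads). The highest US library was 5.60 times the lowest, and the levels at 24 h and 48 h lay closest to each other. All intervals treat reads as independent draws, and they hold counting error alone.

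The control material followed another course. Its level was 76.4 RPM at 0 h (73.5 to 79.4, 2587 reads), the highest of all 10 libraries, and 10.7 RPM at 24 h (9.73 to 11.6, 489 reads), the lowest of all 10. It was 34.6 RPM at 48 h (32.8 to 36.5, 1317 reads), 39.9 RPM at 1 w (38.0 to 41.9, 1622 reads) and 52.5 RPM at 4 w (50.4 to 54.7, 2407 reads). The highest control library was 7.17 times the lowest. The medians over the 5 times were 20.2 RPM in US and 39.9 RPM in control, with ranges that overlapped.

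**Figure D1:**
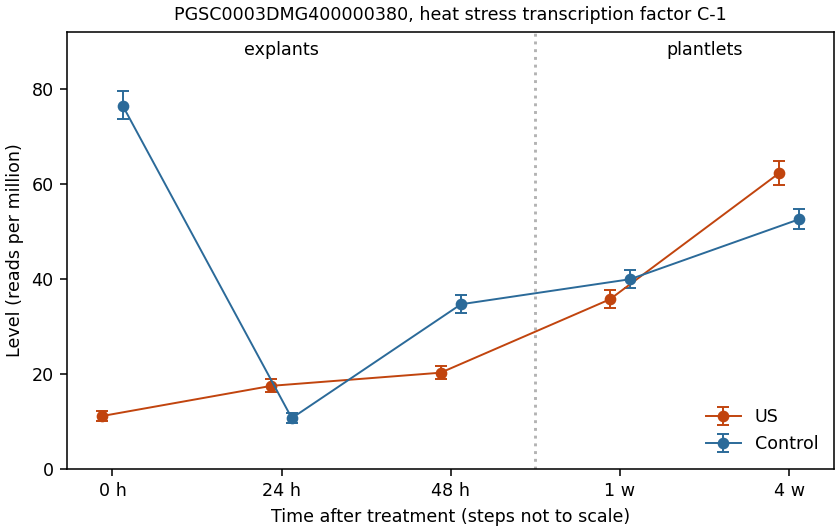
Level of heat stress TF C-1 (vertical axis, RPM) at the 5 times after treatment (horizontal axis, not to scale) in US and control libraries. Points are single libraries, bars are 95% Poisson intervals, and the dotted line separates explants and plantlets. US was 11.1 RPM at 0 h, against 76.4 RPM in control, and the curves lie close to each other at 1 w and 4 w.

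Ordered from the highest to the lowest level, the libraries were control 0 h, US 4 w, control 4 w, control 1 w, US 1 w, control 48 h, US 48 h, US 24 h, US 0 h and control 24 h. Neighbours in that order differed beyond counting error, with reads taken as independent, except for 2 pairs. US at 1 w was 1.03 times control at 48 h (0.955 to 1.11). US at 0 h was 1.04 times control at 24 h (0.912 to 1.19), so the level in US explants at 0 h and that in control explants at 24 h were within counting error of each other.

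At 0 h, heat stress TF C-1 was 6.88-fold lower in US than in control explants (95% interval 6.19 to 7.66, log2 difference −2.78). A rule of size was used for all features, under which a gene passed if US and control differed at least 4-fold (a log2 difference of 2) and one of them reached 1 RPM. Heat stress TF C-1 passed at 0 h only. Of the 21236 features with at least 1 RPM at that time, 2.06% passed as lower in US and 1.7% as higher, and 0.768% were lower by as much as this gene. Because this pair chose the gene, nothing is read from that place.

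At the 4 later times US was higher than control at 24 h and 4 w and lower at 48 h and 1 w, by less than in the pair of 0 h each time. At 24 h the level in US was 1.64 times that in control (1.46 to 1.84, log2 difference 0.71), and 12.9% of features were as high or higher. At 48 h it was 0.584 times control (0.535 to 0.637, log2 difference −0.78), and 16.7% of features were as low or lower.

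At 1 w US was 0.894 times control (0.832 to 0.960, log2 difference −0.16), and at 4 w 1.18 times control (1.12 to 1.25, log2 difference 0.24). All 4 intervals excluded a ratio of 1, but none of these differences has a replicate check. None of the 4 passed the rule of size. In explants, 1.4% of features passed as higher and 1.81% as lower in US at 24 h, and 1.39% as higher and 2.8% as lower at 48 h. In plantlets, 0.562% passed as higher and 1.17% as lower at 1 w, and 2.39% as higher and 3.03% as lower at 4 w.

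The number of features with only 1 to 5 reads also differed between the libraries of most pairs. It was 1911 in US and 1922 in control at 0 h, 866 in US and 1721 in control at 24 h, and 1554 in US and 1316 in control at 48 h. In plantlets it was 1201 in US and 1816 in control at 1 w, and 2021 in US and 1206 in control at 4 w. US had fewer such features at 24 h, when the gene was higher in US, and more at 4 w, when it was higher too. The part of this in the differences of the gene was not tested.

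**Figure D2:**
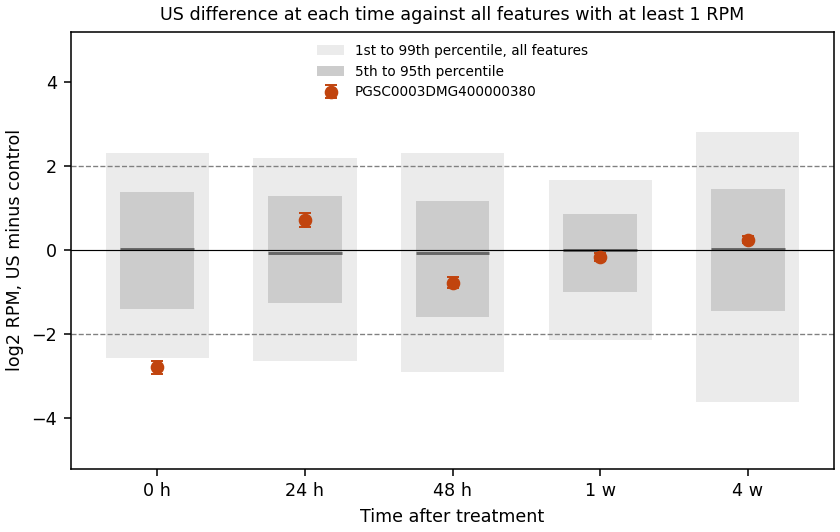
Log2 difference of US minus control (vertical axis) at each time (horizontal axis) for heat stress TF C-1, with its 95% counting interval, over the spread of all features with at least 1 RPM (light boxes 1st to 99th percentile, dark boxes 5th to 95th, line at the median). Dashed lines mark the rule of size. The gene lies at −2.78 at 0 h, below the 1st percentile of −2.57, and inside the dark boxes at the 4 later times.

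Whether US changed the gene at the times that had not chosen it was tested across the 4 later pairs, with time as a block. The mean log2 difference of US minus control was 0.0045 ± 0.27 (SE, limma), with a 95% interval of −0.62 to 0.62, or 0.653- to 1.54-fold. Its adjusted p was 1.00, so the test found no mean difference. A mean difference of up to about that size in either direction was within the interval. The interval is of the mean over the 4 pairs, whose differences had opposite signs, and does not bound single times. Those at 24 h (0.71) and 48 h (−0.78) lay outside it. Among 20560 genes, limma called 0 at an adjusted p under 0.05 (0%), and for 336 the p before adjustment was under 0.05. Without the 24 h and 48 h pairs the difference of the gene was 0.04, and limma called 7 genes, of which this was not one.

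Between adjacent times, the largest step of the gene was in control explants. US was 1.57-fold higher at 24 h than at 0 h (1.39 to 1.78, log2 difference 0.65). Control was 7.17-fold lower at 24 h than at 0 h (6.51 to 7.92, log2 difference −2.84), past the rule of size, which 8.09% of features passed as lower in that step. Both steps begin at the libraries of 0 h, which chose the gene, and are given as a description.

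In the next step, 48 h over 24 h, the level in US was 1.16 times higher (1.05 to 1.28) and the level in control 3.25 times higher (2.93 to 3.61). At 1 w over 48 h the ratios were 1.76 in US (1.62 to 1.92) and 1.15 in control (1.07 to 1.24). At 4 w over 1 w they were 1.74 in US (1.63 to 1.86) and 1.32 in control (1.24 to 1.40). After 24 h, every step was thus upward in both treatments.

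Over the whole course, US at 4 w was 5.60-fold higher than US at 0 h (5.04 to 6.24), past the 4-fold of the rule of size, which 6.6% of features passed as higher. Control at 4 w was 0.687 times control at 0 h (0.650 to 0.727) and 4.93-fold higher than control at 24 h (4.47 to 5.44), where 2.2% of features passed as higher. The shapes of both courses were compared with those of all 20494 features that had a mean log2 RPM of at least 0. A level higher at each time than at the one before was seen for 531 features in US (2.59%). In control, 126 features (0.615%) were highest at 0 h, lowest at 24 h and higher at each later time than at the one before. Only 2 features had both courses, heat stress TF C-1 and a NAC domain-containing protein 21/22-like gene (PGSC0003DMG400022134) described below. These shapes were chosen after the values of the gene were seen, and the count is a description.

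The change over time from 24 h to 4 w was tested in both treatments together, on the 8 libraries that had not chosen the gene. The level of heat stress TF C-1 changed with time (F = 10.8, limma, adjusted p = 0.0475), as did 8.91% of all genes tested. Plantlets had 35.6 to 62.2 RPM (47.6 ± 12.1, SD, n = 4 libraries), and explants of 24 h and 48 h had 10.7 to 34.6 RPM (20.7 ± 10.1, SD, n = 4 libraries). In each group the 4 libraries are the US and control libraries of only 2 times. The groups did not overlap, as was the case for 6.39% of genes with plantlets above and for 7.5% with plantlets below.

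The gene rose in plantlets over explants by 1.29 ± 0.27 on the log2 scale (SE, limma, 95% interval 0.67 to 1.91, adjusted p = 0.0320), or 2.44-fold (1.59 to 3.76). Of all genes, 8.03% were called in either direction in this contrast, and 2.14% were called as higher in plantlets. The kind of material and the time since cutting cannot be told apart in this contrast. Its SE and p come from the scatter of US against control within a time. They leave out the spread between the times of each material, such as the 3.25-fold step from 24 h to 48 h in control. The calls of the gene for time and for material rested on single pairs. Without the 24 h pair the difference between plantlets and explants was 0.81 (adjusted p = 0.163), and without the 4 w pair it was 0.99 (adjusted p = 0.202). With the 0 h pair included among the explants it was 1.08 (adjusted p = 0.125), and the groups overlapped because control at 0 h was above every plantlet library. For the change over time, adjusted p was 0.127 without the 24 h pair, 0.0748 without the 1 w pair, 0.231 without the 4 w pair, and 0.287 without the 24 h and 48 h pairs.

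**Figure D3:**
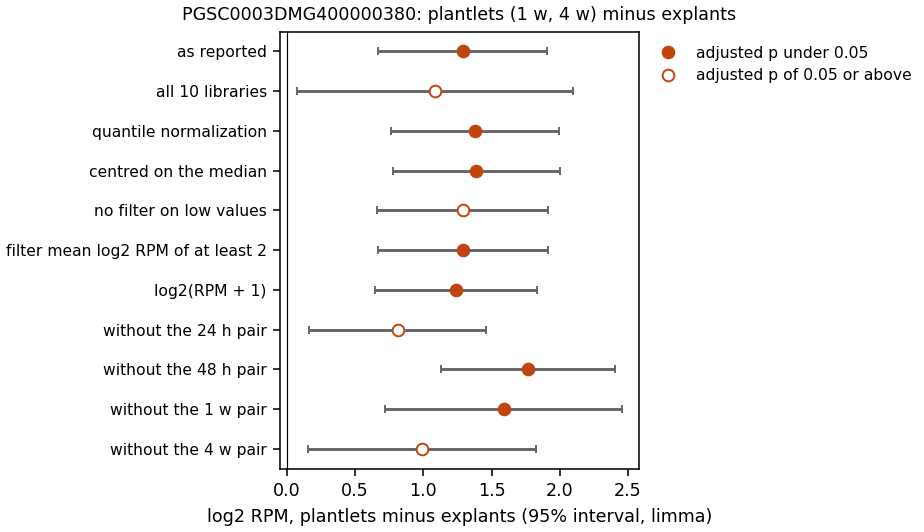
Log2 difference of plantlets (1 w, 4 w) minus explants (24 h, 48 h) for heat stress TF C-1 (horizontal axis) with its 95% interval from limma, as reported (top row) and under 10 alternatives (rows). Filled points have an adjusted p under 0.05. All 11 values are above 0, between 0.81 and 1.77, and 4 of the alternatives have open points.

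The genes with the course most like that of heat stress TF C-1 were sought by the Pearson correlation of log2 RPM over the 10 libraries, among 20493 features. The libraries share treatments and times, so the correlations are a description. Only 1 feature, PGSC0003DMG400012452, reached a correlation of 0.9 (r = 0.93), followed by PGSC0003DMG400021498 (r = 0.90), and the tenth had r = 0.84. The files give no name for these and 7 others of the 10. At 0 h all 10 were lower in US than in control, between −3.60 and −0.62 on the log2 scale (median −1.55, against 0.02 for all features), and 3 passed the rule of size as lower.

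In the pairs of later times, 8 of the 10 were higher in US at 24 h (median 0.33), 1 at 48 h (median −0.34), 4 at 1 w (median −0.18) and 8 at 4 w (median 0.20). None passed the rule of size at those times. Since the features were picked for likeness over the same libraries, their directions follow from the choice. Without control at 0 h the correlations of these 10 were between 0.80 and 0.90. Then 40 features reached 0.9, among them 1 of these 10, and none of the 10 was among the 10 most alike.

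The only named one of the 10 was a NAC domain-containing protein 21/22-like gene, PGSC0003DMG400022134 (r = 0.87). NAC proteins are a large plant family of transcription factors in development and stress. The level of this gene in US was 3.37, 4.06, 10.8, 23.3 and 46.2 RPM in the order of the 5 times. In control it was 40.9, 12.1, 13.5, 22.2 and 27.1 RPM. Like heat stress TF C-1, it was higher in US at each time than at the one before, but its first step was within counting error. Its level in US at 24 h was 1.21 times that at 0 h (0.947 to 1.54). In control it was also highest at 0 h, lowest at 24 h and higher at each later time than at the one before. Its control levels at 24 h and 48 h were close (557 and 512 reads), and no interval is given for that step. The NAC 21/22-like gene was 12.1-fold lower in US than in control at 0 h (10.1 to 14.7), the pair by which the study listed it too.

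At 24 h the NAC 21/22-like gene differed from heat stress TF C-1, with a log2 difference of US minus control of −1.58, against 0.71. It also rose in plantlets over explants, by 1.62 ± 0.37 on the log2 scale (SE, limma, adjusted p = 0.0422), and the change over time did not pass (adjusted p = 0.0780).

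Among the genes that the study called at one time or another, 19 carry the name of a transcription factor. This list was drawn up here from those names and is wider than the study's own list of such factors. The 18 besides heat stress TF C-1 had been called on these libraries, so their counts are no independent evidence. At 0 h, 1 passed as higher and 3 as lower in US (median −0.27), against 1.7% and 2.06% of all features. The gene passed as higher was scarecrow-like protein 3, a GRAS family regulator, with 142 RPM in US and 34.4 RPM in control. Those passed as lower were the NAC 21/22-like gene and a pair of homeobox-leucine zipper ATHB-12-like genes. At 24 h, 1 passed as higher and 0 as lower (median 0.11), against 1.4% and 1.81% of all features. At 48 h, 0 passed as higher and 2 as lower (median −0.96), against 1.39% and 2.8% of all features. At 1 w, 0 passed as higher and 6 as lower (median −0.33), against 0.562% and 1.17%. At 4 w, 7 passed as higher and 2 as lower (median 1.30), against 2.39% and 3.03%. The study had listed 6 of the 18 at 1 w and 11 at 4 w, and every gene that passed at these times was among those.

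Of the 19, heat stress TF C-1 and the NAC 21/22-like gene passed at 0 h alone. The ethylene-responsive factor ERF017 had 105 RPM in US and 15.2 RPM in control at 24 h. At 4 w it had 20.5 RPM in US and 1.44 RPM in control. The 3 ZAT10-like zinc finger genes, relatives of an Arabidopsis repressor in stress responses, had log2 differences of 2.37 to 3.67 at 4 w. Probable WRKY 40, a member of a family known from defence, had no reads in US at 4 w and 7.53 RPM in control.

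**Figure D4:**
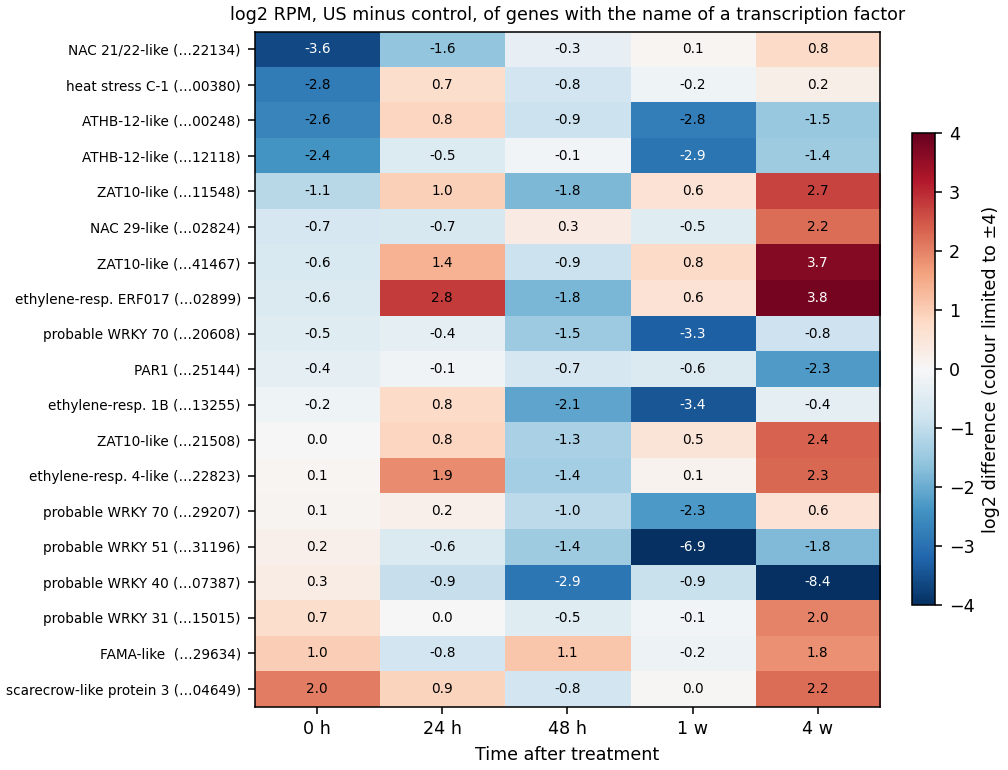
Log2 difference of US minus control of 19 genes with the name of a transcription factor among those called by the study (rows, ordered by the difference at 0 h) at the 5 times (columns), with the value in each cell and colours limited to 4 in size. Heat stress TF C-1 is second from the top, with −2.78 at 0 h and at most 0.78 in size later. The value of WRKY 40 at 4 w is from a US library without reads and depends on the scale's floor.

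Heat shock proteins are the best known targets of HSFs, and only a pair of genes with a heat shock domain carried a name in the lists of the study. Both code for DnaJ-type co-chaperones, which stimulate the activity of HSP70. The gene for the DnaJ heat shock amino-terminal domain protein (PGSC0003DMG400020433) had 39.3, 44.9, 98.9, 61.1 and 110 RPM in US from 0 h to 4 w. In control it had 60.4, 97.2, 68.0, 258 and 297 RPM. The chloroplastic dnaJ C76-like gene (PGSC0003DMG400006735) had 52.5, 50.3, 166, 56.7 and 198 RPM in US, and 56.0, 80.5, 65.0, 160 and 265 RPM in control.

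Of the DnaJ pair, 0 passed the rule of size at 0 h, when their log2 differences were −0.62 and −0.09. At 24 h and 48 h both differed between US and control in the direction opposite to heat stress TF C-1. At 1 w the amino-terminal domain gene alone passed, as lower in US (log2 difference −2.08), against 1.17% of all features. The study had listed both genes of the DnaJ pair at 1 w, so this share is no test of them. Over the 10 libraries the correlation of the amino-terminal domain gene with heat stress TF C-1 was 0.40, and that of the C76-like gene was 0.38.

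Genes of ABA and water deficit were described because class C HSFs of other species respond to that hormone. The 6 genes of this list had been named by the study among those it called, 3 of them at 0 h. At 0 h, 4 of the 6 passed as lower in US and 0 as higher (median −2.51, against 0.02 for all features), where 2.06% of all features passed as lower. At 24 h, 0 passed and 5 were above 0 (median 1.14). At 48 h, 3 passed as lower (median −1.89, 2.8% of all features). In plantlets, 3 passed as lower at 1 w (median −1.74, 1.17% of all features) and 1 at 4 w (median −1.31, 3.03% of all features). None passed as higher at these times. The study had listed 2 of the 6 at 48 h, 3 at 1 w and 1 at 4 w. Every gene of the list that passed at 1 w or 4 w had been listed by the study at that time. The shares of all features are therefore no test of the list.

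The gene for 9-cis-epoxycarotenoid dioxygenase (NCED), the enzyme of a rate-limiting step in ABA synthesis, had 27.1 RPM in US at 0 h and 234 RPM in control, 8.66-fold lower (8.11 to 9.27). At the 4 later times, in order, it had 8.13, 7.58, 0 and 7.25 RPM in US, and 2.94, 18.9, 6.81 and 2.84 RPM in control. The dehydrin TAS14, a protein made under water deficit, had 10.2, 5.89, 5.76, 8.89 and 0.507 RPM in US from 0 h to 4 w. In control it had 145, 2.09, 33.3, 14.6 and 38.2 RPM. In control both genes had their highest level at 0 h and a far lower one at 24 h, as heat stress TF C-1 had.

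One of the ATHB-12-like genes (PGSC0003DMG400000248), whose Arabidopsis counterpart is induced by ABA and drought, had 24.8, 2.46, 6.71, 1.28 and 1.72 RPM in US from 0 h to 4 w. In control it had 153, 1.37, 12.2, 8.68 and 4.91 RPM. The other one (PGSC0003DMG400012118) had 16.4 RPM in US and 86.4 RPM in control at 0 h. The late embryogenesis abundant protein gene SAG21-like (PGSC0003DMG400031788) had 262, 646, 151, 184 and 216 RPM in US, and 574, 239, 1164, 139 and 497 RPM in control.

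Heat stress TF C-1 was lower in US at 0 h, higher at 24 h and lower at 48 h. Of the 6 genes, 4 had that order of signs, namely NCED, TAS14, SAG21-like and the first ATHB-12-like gene. The order was taken from the values of heat stress TF C-1, and the study had called each of the 4 at 0 h or 48 h. The share of all features with that order was not computed, so the count is a description only. The second ATHB-12-like gene was lower in US at 24 h too (log2 difference −0.55). The HVA22-like gene (PGSC0003DMG402023061), a relative of an ABA-induced gene of barley, had 6.58 RPM in US and 3.31 RPM in control at 0 h, the opposite direction. At 4 w, when heat stress TF C-1 had a log2 difference of 0.24, NCED had 1.35, and the other 5 were between −6.24 and −0.96. Over the 10 libraries the correlations of the 6 genes of the list with heat stress TF C-1 were between −0.48 and 0.37.

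**Figure D5:**
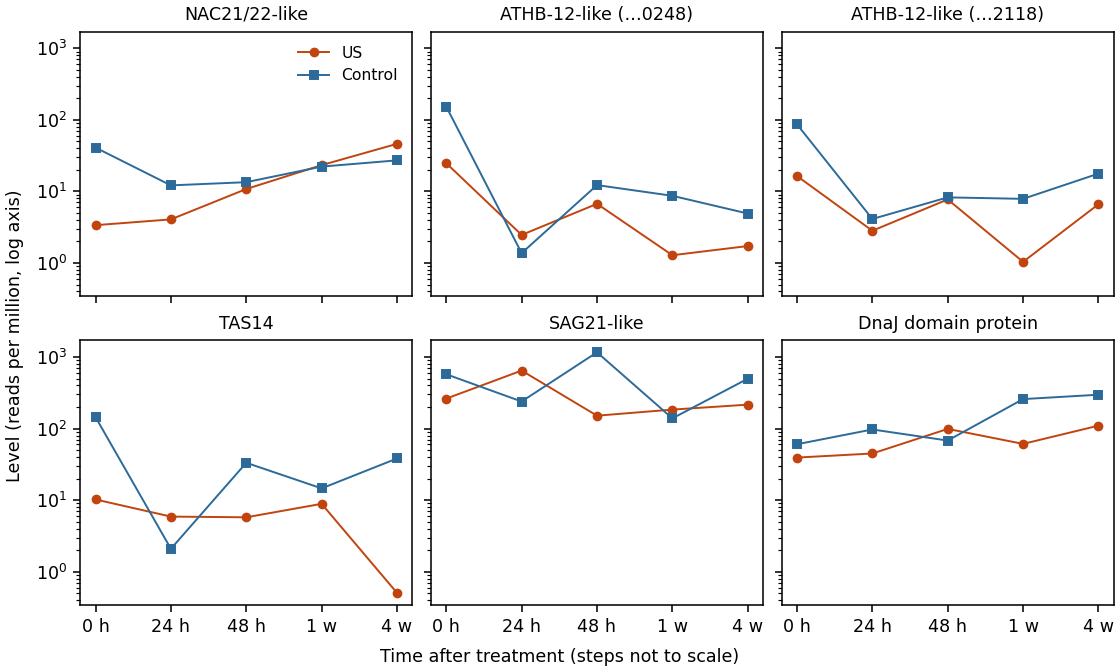
Level (vertical axis, RPM on a log axis) at the 5 times (horizontal axis, not to scale) of 6 named genes in US and control libraries, 1 library per point. At 0 h US lies below control for the NAC 21/22-like gene (3.37 against 40.9 RPM), both ATHB-12-like genes and TAS14 (10.2 against 145 RPM), and for these 3 last genes control at 24 h lies far below control at 0 h. The DnaJ gene at lower right had 39.3 RPM in US and 60.4 RPM in control at 0 h.

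Proteinase inhibitors, which plants make against insects and after wounding, moved in other ways. Of 11 named by the study, 6 passed as higher and 4 as lower in US at 0 h, against 1.7% and 2.06% of all features, and 10 of them had been listed by the study at that time. At 1 w 7 passed as lower, against 1.17% of all features, and at 4 w 7, against 3.03%, with 0 as higher at both times. The study had listed 6 of the 11 at 1 w and 6 at 4 w, so the shares of all features are no test of this list. Of the 4 markers of green tissue, which the study had also called, 1 passed as higher and 2 as lower at 0 h, against 1.7% and 2.06% of all features. Carbonic anhydrase had 524 RPM in US and 71.7 RPM in control at that time. Beta-amylase 1 had 166 RPM in US and 862 RPM in control, and superoxide dismutase 24.3 and 148 RPM. The light-induced protein had 170 and 214 RPM, so these went the other way. A chlorophyll a/b binding protein gene outside the 4 (PGSC0003DMG400008301) was lower in US at 0 h too (log2 difference −0.94). The part of the makeup of the tissue in the differences of heat stress TF C-1 was not tested.

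The genes on either side of heat stress TF C-1 on chromosome 12 were examined in the same way. Of the 5 features on each side, 6 had a mean log2 RPM of at least 0, and their log2 differences of US minus control at 0 h were between −1.48 and 0.78. None of the 6 passed the rule of size at 0 h, and 1 passed at another time. Their correlations with heat stress TF C-1 over the 10 libraries were between −0.24 and 0.50.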

How the data were processed

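The authors trimmed the reads with Trim Galore 0.5.0, aligned them to SolTub 3.0 with HISAT2 2.1.0 and counted reads of mapping quality 60 in exons with SeqMonk 1.42.0. Whether strand was used is not given in the sources used here. The values deposited by the authors are log2 RPM (reads per 1000000 of the library total), with 0.9 reads in place of 0. Whole reads were recovered from the lowest value of each library, and 99.98% of values came within 0.1 of a whole number. Gene reads summed to 1.71 to 1.77 times the total, so a read pair may be counted more than once.

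With 1 library per group, the times stood in for replicates in the test of the US effect, and the US and control libraries of a time did so in the tests of time and of material. The fit by limma 3.58.1 in R 4.3.3 (lmFit, eBayes with trend) used log2 RPM of the 8 libraries from 24 h to 4 w and the 20560 genes whose mean log2 RPM was 0 or more, with time as the block and US minus control as the effect, and it was tested on simulated data. Adjusted p-values are Benjamini-Hochberg values over all genes tested, with a threshold of 0.05. Ratios have exact conditional (Clopper-Pearson) 95% intervals from scipy 1.17.1 in Python 3.11.15. The genes named were the gene itself, the 10 features most alike in course, the lists of the study's named genes, and the 5 features on either side. In the file 0 features had a description and 0 identifiers matched the RefSeq table, so the families of HSFs and heat shock proteins were not analysed here. The gene and the lists were chosen with earlier results of these data known. Alternatives were all 10 libraries, other scalings, filters and pseudocounts, no time block, each pair left out, and other rules of size or likeness. The fit without the 24 h and 48 h pairs was chosen after seeing the data.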

Additional observations from a re-analysis of the deposited data

Results flagged for a closer look

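The difference between US and control of heat stress TF C-1 had opposite signs at several pairs of times. With 1 library per group, these changes of sign were not tested. On the log2 scale, US minus control was higher at 24 h than at 0 h by 3.49 and higher at 4 w than at 0 h by 3.03, but 0 h was the pair that chose the gene. Between the later times, the value at 48 h less that at 24 h was −1.49, and the value at 1 w less that at 24 h was −0.87. The value at 4 w less that at 48 h was 1.02, and the value at 4 w less that at 1 w was 0.41. The same 3.49 is the step of 24 h over 0 h in US less that in control, since US was higher and control lower at 24 h than at 0 h.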

How the results depend on the processing

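The test of the US effect paired the libraries by time. Without the time block the difference (0.0045) was the same by design, since each time had both treatments. Its SE was then 0.56 instead of 0.27, and the gene was again not called. The US effect of heat stress TF C-1 at 24 h to 4 w stayed without a call in all 12 alternatives. The effect as reported was near 0, and its sign turned with quantile normalization (−0.00080), log2(RPM + 1) (−0.00059) and with single pairs left out (−0.23 to 0.26). With all 10 libraries it was −0.55, but that fit includes the 0 h pair, which chose the gene. Without the 24 h and 48 h pairs limma called 7 genes. For the change over time the gene passed in 5 of 11 alternatives. It did not pass with all 10 libraries (F = 2.40, adjusted p = 0.192), with no filter on low values (F = 11.1, adjusted p = 0.0771) and without the 24 h and 48 h pairs (F = 3.54, adjusted p = 0.287), and F was 6.07 to 22.7 with single pairs left out. Genes called for time numbered 1831, and 8432 with all 10 libraries, 961 with no filter and 147 to 3103 with single pairs left out. For plantlets minus explants the gene passed in 6 of 10 alternatives. It did not pass with all 10 libraries (1.08, adjusted p = 0.125) or with no filter (1.29, adjusted p = 0.0526), and it lay at 0.81 to 1.77 with single pairs left out. Genes called there numbered 1650, and 3698 with all 10 libraries, 996 with no filter and 415 to 2286 with single pairs left out. The direction was upward in each of these 10. The cause of these changes was not tested. The fit with no filter adjusts over more genes (28535), and its limma p before adjustment was higher too. For time it was 0.00546 with no filter and 0.00404 as reported. For plantlets minus explants it was 0.00201 with no filter and 0.00149 as reported.

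The log2 difference at 0 h was −2.63 under quantile normalization, and the differences at all 5 times kept their sign under 3 alternatives. By the rule of size, in the order of the 5 times, 797, 687, 913, 375 and 1144 genes passed. At a threshold of 1 on the log2 scale these were 4125, 3335, 4043, 1886 and 3821, and with a minimum of 4 RPM 421, 217, 433, 114 and 548. Genes of like course (correlation of at least 0.9) numbered 1, and 5 by Spearman's correlation, 40 without control at 0 h, 170 over the 5 control libraries alone and 729 over the 5 US libraries alone. Depth was not the limit for this gene, with 405 reads or more in each library. With 1 library per group, variation between plants could not be measured.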
